A study of Mus musculus with 6 samples.

Results

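The interleukin-6, LIF and STAT3 pathway was examined in tumours of DU145, a human prostate cancer line, through 10 human genes: the ligands IL6 and LIF, the receptor chains IL6R, LIFR, OSMR and IL6ST, the kinases JAK1 and JAK2, the transcription factor STAT3 and the feedback inhibitor SOCS3. They were taken by gene name from the human table of the deposited data, where each matched 1 row, 10 of 58884 named human genes. The study asked how Zelnorm (tegaserod, an agonist of a serotonin receptor) acts on such tumours and their immune surroundings. There were 3 Zelnorm tumours (MBZ_254, MBZ_257 and MBZ_259), from mice given the drug by mouth every day, and 3 control tumours (NC10, NC4 and NC9). All 6 were subcutaneous tumours of DU145 cells in male nude mice, which lack a thymus and so most T cells. Ages, the dose and what controls were given are not stated in the sources used here. Titles of the treated group carry MBZ while the treatment label says Zelnorm, and the group is called Zelnorm as labelled. Nothing in the labels ties a tumour to a named animal, so p-values measure the spread between these samples.

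Cytokines of this family signal through receptors that share the chain gp130, encoded by IL6ST. IL-6 binds IL6R and then gp130, LIF binds LIFR with gp130, and oncostatin M can use OSMR with gp130. JAK kinases bound to the receptors phosphorylate STAT3, which enters the nucleus and switches on genes that include SOCS3, whose protein binds the receptor and JAK and shuts the signal off. DU145 cells are known for making IL-6 themselves and for active STAT3 in culture. Most of the regulation of JAK and STAT proteins is by phosphorylation, which RNA levels do not show. Mouse IL-6 and mouse LIF do not act on the human receptors, whereas human IL-6 and human LIF act on mouse cells.

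The human table held 24602178 to 36935816 counts in the Zelnorm tumours and 25854118 to 39278195 in the controls. The mouse table of the same libraries, meant for host cells, held 5817165 to 9050985 counts in the Zelnorm tumours and 6158251 to 9228446 in the controls. Epithelial genes of DU145 were present in every tumour, with 51864 to 89461 counts of KRT8 and 8922 to 16213 of EPCAM, and the prostate gene KLK3 had at most 2 counts, as is known of this line. Of 11 human rows of genes that mark host cell types, CD3E and ADIPOQ had 0 to 2 counts and VWF 3 to 11. The muscle gene ACTA1 had 22.7 to 3336, the macrophage gene CD68 656 to 1067 and the collagen gene COL1A1 7214 to 23787. In MBZ_257 the human row of CD68 held 955 counts and mouse Cd68 850. How far the human CD68 row stems from host cells was not tested. The human row of COL1A1 held 26.4% to 31.2% of the count of mouse Col1a1 in each of the 6 tumours. The 11 host-type markers summed to 256 to 831 CPM of the human table in the Zelnorm tumours and 559 to 987 CPM in the controls. The sum was lowest in MBZ_257 and highest in NC4. COL1A1 made up most of it, at 221 CPM in MBZ_257 and 894 CPM in NC4. Levels are in CPM, the usual scale of counts relative to the library total, taken over the tested genes of a table and adjusted for composition. The marker sum uses the plain total of the table.

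None of the 10 genes differed between Zelnorm and control tumours beyond the spread between tumours. All 10 passed the filter on low counts, and the Zelnorm and control values of each of the 10 overlapped. With edgeR's quasi-likelihood test, adjusted over all 18820 tested human genes by the Benjamini-Hochberg method, 0 of 10 passed 0.05 (each adjusted p = 1.00), where 0% of all tested genes passed. At an unadjusted p under 0.05 there were 0 of 10, against 1.31% of all tested genes. Groups that did not overlap were found for 4.82% of all tested genes. On the log2 scale 4 of the 10 fold changes were above 0 and 6 below, with a median of -0.03, against a median of -0.00 over all tested genes. Over all genes DESeq2 called 2 (0.00603%), limma-voom 0 (0%) and edgeR without the filter 61 (0.184%), none of them among the 10.

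**Figure D1:**
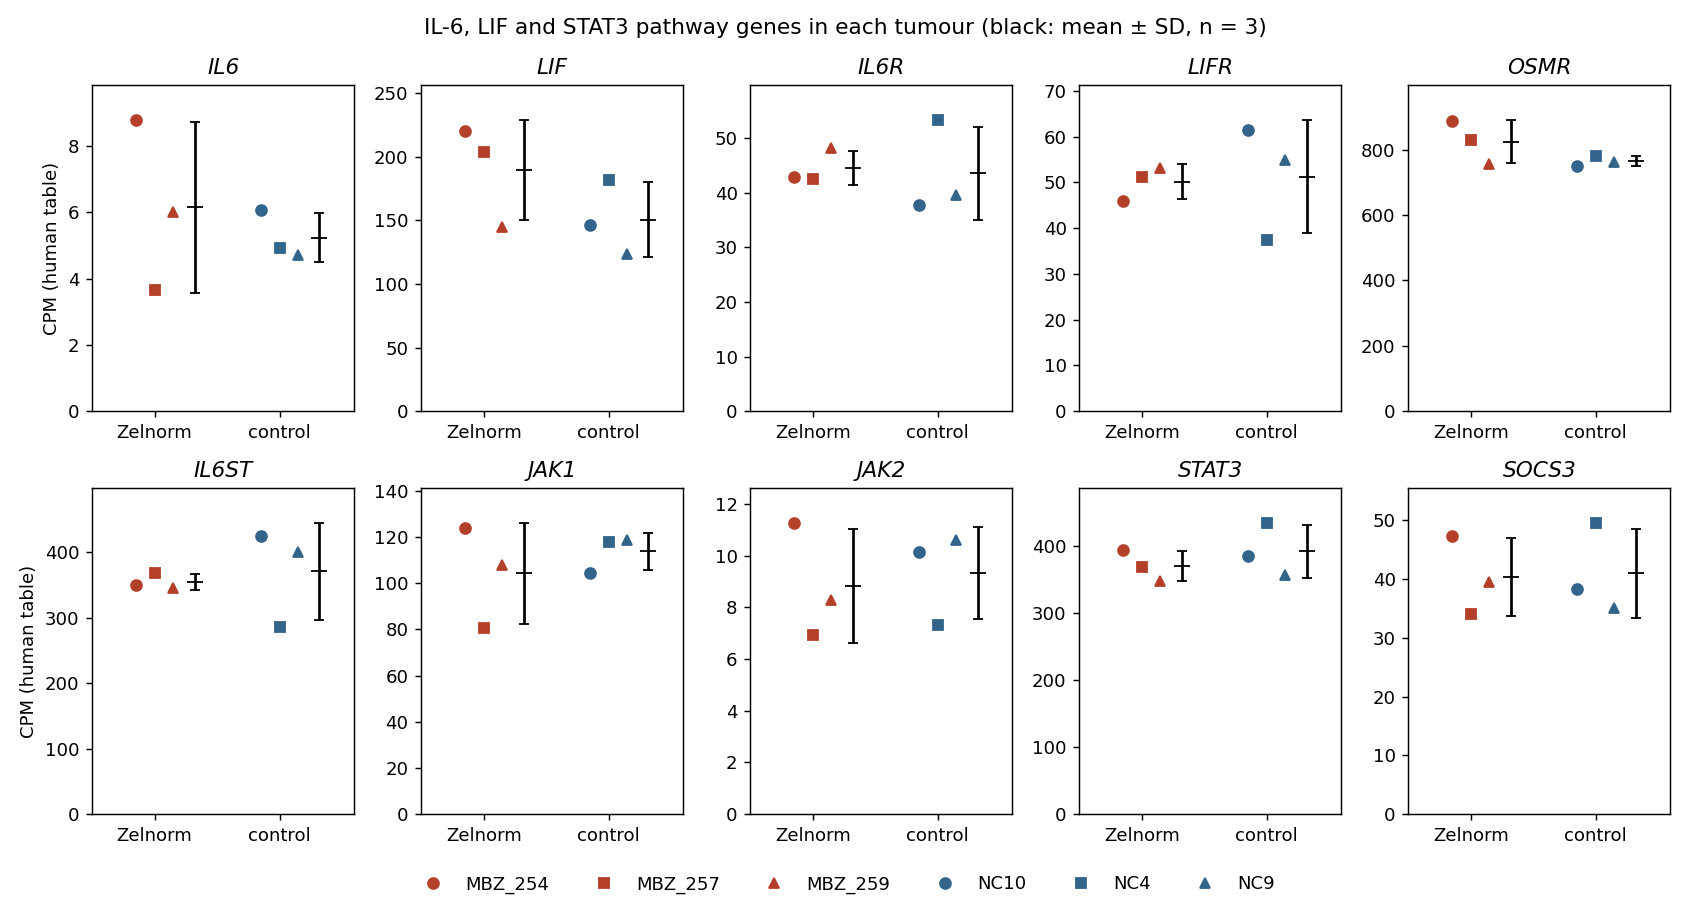
Level of each of the 10 genes in CPM of the human table, with 1 point per tumour (Zelnorm left, control right) and the mean and SD of 3 tumours in black. Zelnorm and control points overlap in every panel, and LIF has its 2 highest points, 220 and 204 CPM, among the Zelnorm tumours.

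Of the ligands, LIF had the smallest p of the 10 genes. LIF (ENSG00000128342), a cytokine that acts through LIFR and gp130, was at 220, 204 and 145 CPM in the Zelnorm tumours MBZ_254, MBZ_257 and MBZ_259, against 146, 182 and 123 CPM in the controls NC10, NC4 and NC9. MBZ_254 and MBZ_257 lay above every control, while MBZ_259 lay below NC10 and NC4. The means were 189 ± 39.4 CPM in Zelnorm and 150 ± 29.5 CPM in control tumours (SD, n = 3 each), a log2 fold change of 0.33 (SE 0.18; 95% interval -0.08 to 0.75; edgeR adjusted p = 1.00). That interval spans 0.945-fold to 1.68-fold and includes no difference. The sign stayed above 0 when any 1 tumour was left out, with log2 values of 0.21 without NC9 to 0.49 without MBZ_259.

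IL6 (ENSG00000136244), which encodes interleukin-6, rested on few reads, with 118 to 217 counts in the Zelnorm tumours and 127 to 188 in the controls. Its level was 8.79, 3.64 and 6.01 CPM in MBZ_254, MBZ_257 and MBZ_259, against 6.07, 4.91 and 4.72 CPM in NC10, NC4 and NC9. The highest and the lowest of the 6 values were both Zelnorm tumours, 2.41-fold apart. The log2 fold change was 0.23 (SE 0.29; 95% interval -0.42 to 0.88) and turned to -0.11 without MBZ_254. MBZ_254 had the most LIF and the most IL6 of the 6 tumours, while MBZ_257 had the second highest LIF and the lowest IL6.

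Among the receptor chains, OSMR varied least and showed the narrowest interval. OSMR (ENSG00000145623), the oncostatin M receptor chain, was at 889, 829 and 757 CPM in MBZ_254, MBZ_257 and MBZ_259, against 751, 781 and 762 CPM in NC10, NC4 and NC9. MBZ_254 and MBZ_257 were again the highest, and MBZ_259 lay among the controls. The log2 fold change was 0.11 (SE 0.11; 95% interval -0.15 to 0.37), which spans 0.903-fold to 1.29-fold. IL6R (ENSG00000160712), the chain that binds IL-6, was at 42.9, 42.5 and 48.1 CPM in the Zelnorm tumours, against 37.8, 53.3 and 39.5 CPM in the controls in the same order. Its control values reached below and above all 3 Zelnorm values, and the log2 fold change was 0.03 (95% interval -0.30 to 0.36).

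IL6ST and LIFR, the chains that together bind LIF, followed each other across the controls. IL6ST (ENSG00000134352), encoding gp130, was at 349, 369 and 346 CPM in MBZ_254, MBZ_257 and MBZ_259, against 425, 286 and 401 CPM in NC10, NC4 and NC9. LIFR (ENSG00000113594) was at 45.9, 51.3 and 53.2 CPM in the same Zelnorm tumours, against 61.4, 37.4 and 54.9 CPM in the same controls. Both genes were highest in NC10 and lowest in NC4, and the Zelnorm tumours lay between these controls. The log2 fold change was -0.06 (95% interval -0.41 to 0.28) for IL6ST and -0.03 (95% interval -0.42 to 0.35) for LIFR. IL6R ran the other way in the same controls, highest in NC4 and lowest in NC10.

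**Figure D2:**
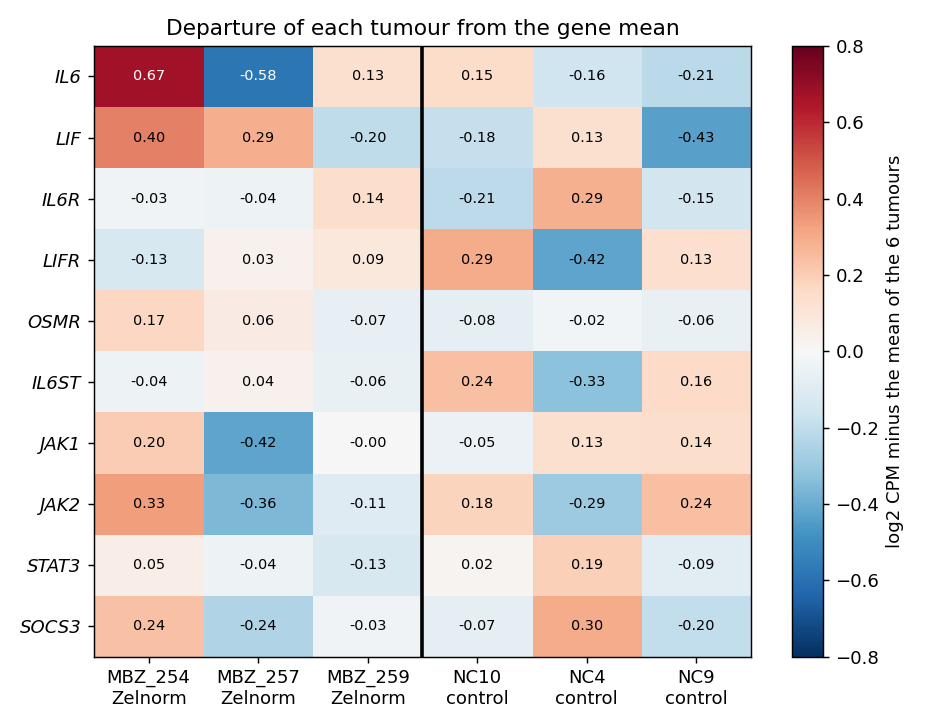
Departure of each tumour from the gene's mean over the 6 tumours, in log2 CPM, for the 10 genes (rows) in Zelnorm tumours (left of the line) and control tumours (right). NC4 is at -0.42 for LIFR and -0.33 for IL6ST, and MBZ_257 is at -0.58 for IL6, -0.42 for JAK1 and -0.36 for JAK2.

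The kinase genes were lowest in the Zelnorm tumour MBZ_257 and highest in the Zelnorm tumour MBZ_254. JAK1 (ENSG00000162434), a kinase that gp130 receptors rely on, was at 124, 80.7 and 108 CPM in MBZ_254, MBZ_257 and MBZ_259, against 104, 118 and 119 CPM in NC10, NC4 and NC9. JAK2 (ENSG00000096968) was at 11.3, 6.95 and 8.30 CPM in the same Zelnorm tumours, against 10.1, 7.30 and 10.6 CPM in the same controls. The log2 fold change was -0.13 (95% interval -0.48 to 0.22) for JAK1 and -0.09 (95% interval -0.58 to 0.41) for JAK2. Without MBZ_257 both turned to the other side of 0, at 0.03 for JAK1 and 0.06 for JAK2.

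STAT3 (ENSG00000168610), the transcription factor of the pathway, was at 393, 369 and 347 CPM in MBZ_254, MBZ_257 and MBZ_259, against 385, 434 and 356 CPM in NC10, NC4 and NC9. NC4 was the highest tumour and MBZ_259 the lowest, with the other 4 between 356 and 393 CPM. The log2 fold change was -0.08 (SE 0.12; 95% interval -0.35 to 0.19), spanning 0.782-fold to 1.14-fold. SOCS3 (ENSG00000184557), the feedback inhibitor that STAT3 induces, was at 47.4, 34.1 and 39.6 CPM in the same Zelnorm tumours, against 38.3, 49.5 and 35.1 CPM in the same controls. Each group alone covered nearly the whole range of the 6 tumours, and the log2 fold change was -0.02 (SE 0.17; 95% interval -0.39 to 0.35). STAT3 and SOCS3 were both highest in NC4.

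The 10 genes differed in how much they varied between tumours of a group. The within-group SD of log2 CPM was 0.30 for LIF, at or above that of 92.1% of the 2403 genes within 2-fold of its mean level, and 0.46 for IL6, at the 89.3rd percentile of 3255 such genes. LIFR was at the 87.8th percentile, with an SD of 0.28. OSMR, with an SD of 0.08, was at the 15.8th percentile of 266 genes and STAT3, with 0.12, at the 32.3rd percentile of 826 genes. MBZ_254 held the highest value of 5 of the 10 genes, and MBZ_257 the lowest of 4. Such extremes were not counted over all tested genes, so these counts are not shown to be particular to the 10.

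In the human table SOCS3 and JAK1 had the largest Pearson's r with the host share of the tumour, and neither gene passed the adjustment. The mouse table held 23.4%, 15.1% and 19.7% of all counts in MBZ_254, MBZ_257 and MBZ_259, against 19.2%, 22.3% and 19.0% in NC10, NC4 and NC9. Over the 6 tumours SOCS3 CPM and this share had Pearson r = 0.891 (exact permutation p = 0.00972, adjusted p = 0.0972 over the 10 genes) and Spearman rho = 0.943 (exact permutation p = 0.0167, adjusted p = 0.167). Neither passed the adjustment. Without MBZ_254 and MBZ_257, which lie farthest from the median share, r was 0.987 over the other 4 tumours. Of those 4, NC4 had a share of 22.3% and the rest 19.0% to 19.7%, and other genes also gave values far from 0 there, such as 0.941 for LIF and -0.946 for LIFR, so that the value over 4 tumours is not particular to SOCS3. JAK1 had r = 0.899 (exact permutation p = 0.0222, adjusted p = 0.111) and rho = 0.657 (exact permutation p = 0.175, adjusted p = 0.425). Without the same 2 tumours JAK1 had r = 0.417. With only NC4 set apart in share there, that value cannot show which tumours the JAK1 relation rested on. For the other 8 genes the smallest exact permutation p of Pearson's r was 0.0806, for IL6. The relation to the host share was looked for after the values had been seen. Groups of 3 are too small for it to be tested within Zelnorm or control tumours.

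**Figure D3:**
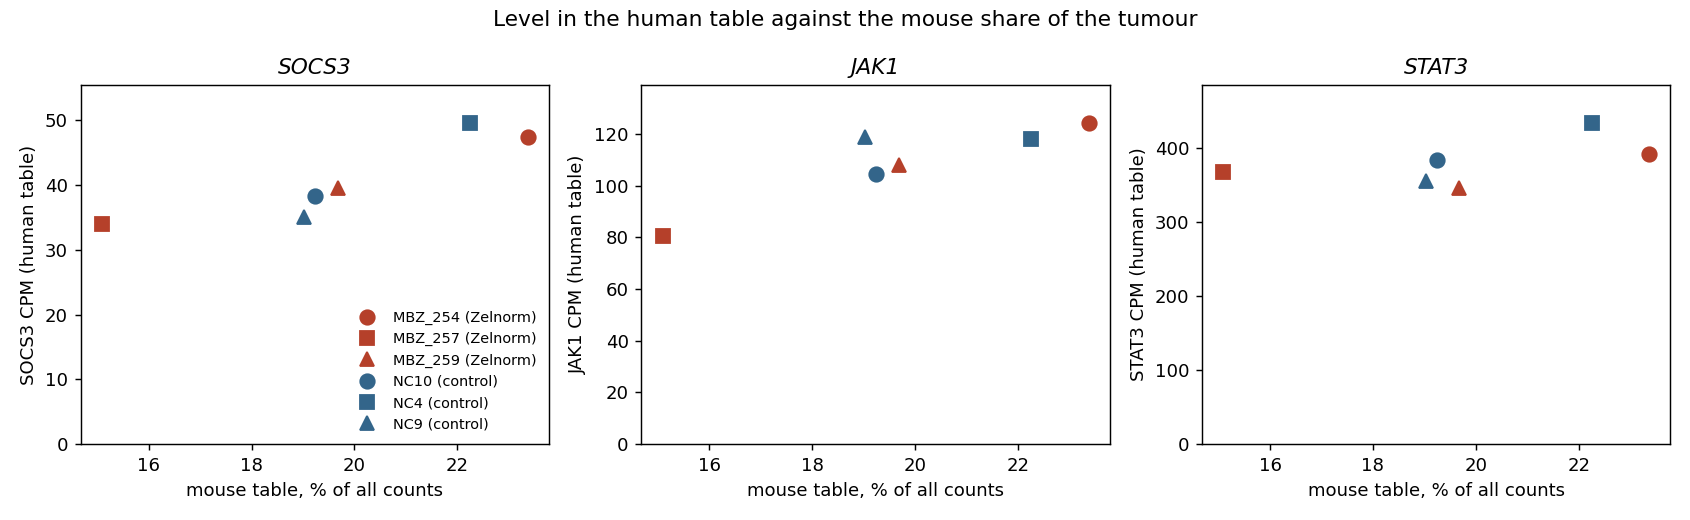
Level of SOCS3, JAK1 and STAT3 in CPM of the human table (vertical axes) against the mouse table's share of all counts of the tumour in percent (horizontal axes), with 1 point per tumour. SOCS3 is highest in NC4 and MBZ_254, the 2 tumours with a share above 22%, and lowest in MBZ_257 at 15.1%.

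Reads of host RNA could enter human rows, and the data hold values that bear on this. The mouse counterpart had more counts than the human row for JAK2, with Jak2 at 54.6% to 72.7% of the counts of both rows in the Zelnorm tumours and 57.5% to 70.6% in the controls. Socs3 held 26.4% to 36.6% of both in the Zelnorm tumours and 31.5% to 33.3% in the controls. For LIF, OSMR and IL6 the mouse row was small: at most 2.33%, 3.40% and 11.4% of both rows in the Zelnorm tumours and 3.04%, 3.05% and 13.6% in the controls. If a counterpart's mouse reads entered the human row at the rate seen for COL1A1, they would make up 37.6% to 70.2% of the human JAK2 count, 11.2% to 16.0% of SOCS3, 12.6% to 18.5% of JAK1 and 0.270% to 0.862% of LIF. This ratio differed between genes: the human row held 1.38% to 2.66% of the mouse count for the leukocyte gene PTPRC, 3.10% to 18.0% for ACTA1 and 57.6% to 112% for CD68. It was 15.2% to 23.2% for the muscle gene CKM in the 4 tumours with at least 203 mouse counts, and MBZ_254 and MBZ_257 had 4 and 6 human against 3 and 2 mouse counts. The part of such reads in the levels of the 10 genes was not tested. In a tumour read in bulk, fewer cells of a type and less RNA per cell cannot be told apart.

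The host side of the pathway was read from the mouse table. All 10 counterparts were tested, and 0 of 10 passed edgeR's test (adjusted p = 1.00 for each), where 0% of 14459 tested mouse genes passed. Their log2 fold changes were above 0 for 4 and below for 6, with a median of -0.02, against 0.02 over all tested mouse genes. At an unadjusted p under 0.05 there were 0 of 10, against 1.75% of all tested mouse genes. The groups of all 10 counterparts overlapped, while those of 5.52% of all tested mouse genes did not. Over all mouse genes DESeq2 called 6 (0.0237%), limma-voom 0 (0%) and edgeR without the filter 2 (0.0079%), none of them a counterpart.

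Per length of the annotated exons (GENCODE M21, GRCm38), Stat3 was the highest of the counterparts, at 47.6 ± 8.42 CPM per kb in Zelnorm and 48.8 ± 2.03 in control tumours (SD, n = 3 each). Jak1, Socs3 and Il6st came next, at 30.5 ± 3.83, 27.9 ± 4.11 and 25.7 ± 7.88 CPM per kb in Zelnorm tumours and 34.9 ± 2.67, 26.8 ± 1.66 and 33.3 ± 9.63 in control tumours. They did not differ from each other beyond their spread in the Zelnorm tumours. In the controls NC10, NC4 and NC9, Jak1 (34.7, 37.6 and 32.3 CPM per kb) lay above Socs3 (25.8, 28.7 and 25.9) without overlap. Il6st overlapped both there. Jak2 was at 13.3 ± 4.67 CPM per kb in Zelnorm and 12.6 ± 1.04 in control tumours. The ligand-specific chains Osmr, Lifr and Il6ra followed at 5.76 ± 2.04, 4.51 ± 0.91 and 4.39 ± 0.30 CPM per kb in Zelnorm tumours, within their spread of each other. In control tumours these chains were at 5.78 ± 0.89, 5.45 ± 0.89 and 4.39 ± 0.72. There, in NC10, NC4 and NC9, Osmr (5.24, 6.81 and 5.30 CPM per kb) lay above Il6ra (4.66, 4.93 and 3.57) without overlap. Lifr overlapped both in the controls. The ligands were lowest: Lif was at 2.76 ± 0.46 CPM per kb in Zelnorm and 3.32 ± 1.04 in control tumours, and Il6 at 0.784 ± 0.467 and 0.711 ± 0.309. Mouse Il6 (chromosome 5 from 30013114 to 30019981, plus strand) rested on 6 to 28 counts in Zelnorm and 8 to 20 in control tumours. Human lengths were not used here, so levels of the human genes are not set against each other.

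Il6st had the largest fold change among the counterparts, at 382, 211 and 263 CPM in MBZ_254, MBZ_257 and MBZ_259, against 328, 492 and 291 CPM in NC10, NC4 and NC9. NC4, the tumour with the least human IL6ST, had the most mouse Il6st, and the groups overlapped (log2 fold change -0.37; 95% interval -1.03 to 0.28). Socs3 in the mouse table was at 74.4, 73.1 and 94.3 CPM in the same Zelnorm tumours, against 74.6, 83.1 and 75.0 CPM in the same controls, with a log2 fold change of 0.06 (95% interval -0.30 to 0.42). Socs3 (chromosome 11 from 117966079 to 117970047, minus strand) thus lay within 1.29-fold over all 6 tumours. The other log2 fold changes of the counterparts lay between -0.27 for Lifr and 0.17 for Il6. Mouse Stat3 was at 384, 541 and 435 CPM in the Zelnorm tumours, against 480, 472 and 443 CPM in the controls. Osm, which encodes oncostatin M, a cytokine known from macrophages and neutrophils, was added after its counts had been seen. It was at 3.18, 3.52 and 5.26 CPM in the Zelnorm tumours, against 0.962, 2.20 and 2.50 CPM in the controls, with no overlap between the groups, as for 2.52% of all tested mouse genes on the higher side. The log2 fold change was 1.05 (SE 0.44; edgeR adjusted p = 1.00), and the counts were 19 to 46 in Zelnorm and 6 to 23 in control tumours.

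**Figure D4:**
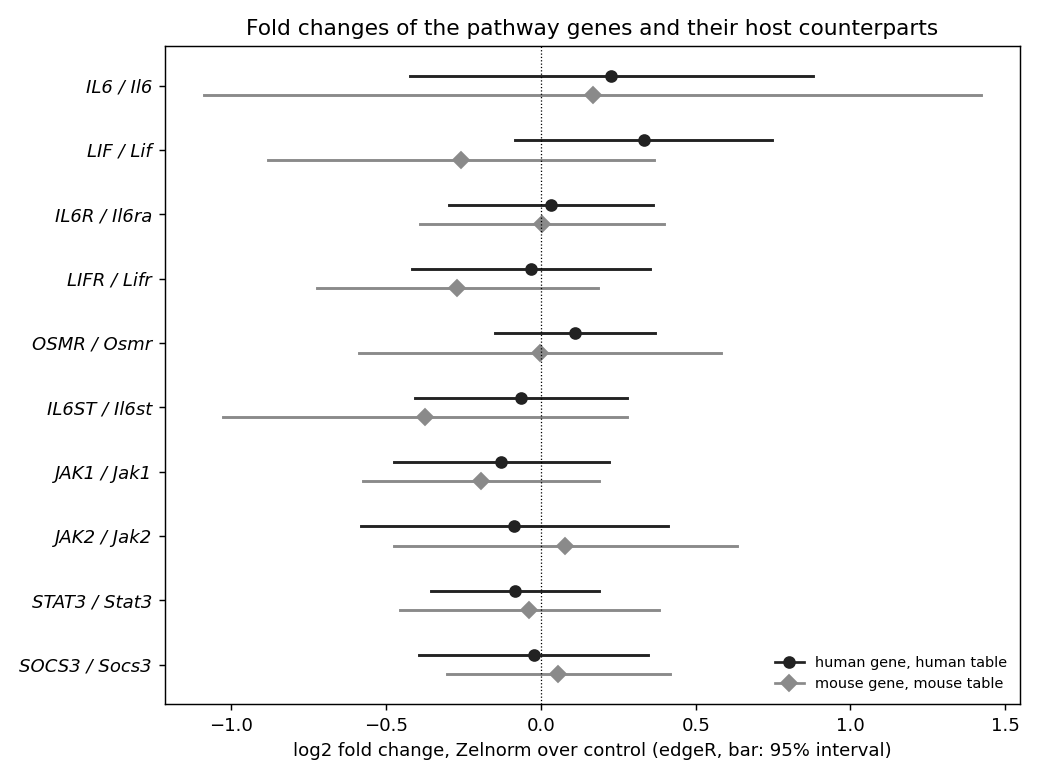
Log2 fold change of Zelnorm over control for each of the 10 human genes (black circles, human table) and its mouse counterpart (grey diamonds, mouse table), with 95% intervals from edgeR. All 20 intervals include 0, and the narrowest of the human genes are those of OSMR (-0.15 to 0.37) and STAT3 (-0.35 to 0.19).

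Other genes of the family were described from lists, with no test of a list as a whole. Of 13 other ligands and receptors 10 were tested, 7 above and 3 below 0, with a median log2 fold change of 0.11, and 0 passed. EBI3, CNTFR and IL27, named here for being under the filter, had at most 6 counts in any tumour. IL11, a ligand that signals through IL11RA and gp130, was at 6.75, 7.10 and 11.5 CPM in the Zelnorm tumours, against 6.30, 6.22 and 7.33 CPM in the controls (log2 fold change 0.35; 95% interval -0.15 to 0.86). CLCF1, a ligand of the CNTF receptor, was at 35.7 ± 11.0 CPM in Zelnorm and 31.7 ± 5.82 CPM in control tumours (SD, n = 3 each), with 48.4 CPM in MBZ_259. CTF1, which encodes cardiotrophin-1, was at 0.407, 0.216 and 0.471 CPM in the Zelnorm tumours, against 0.911, 0.541 and 0.954 CPM in the controls. Its groups did not overlap, as for 2.31% of all tested human genes on the lower side (log2 fold change -1.14; edgeR adjusted p = 1.00). CNTF, another ligand of the family, was at 1.37 ± 0.49 CPM in Zelnorm and 0.931 ± 0.081 CPM in control tumours. Human OSM, named after its values were seen, had 10 to 23 counts in Zelnorm and 12 to 14 in control tumours.

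Genes next to the receptor lay close to 0. Of 7 other kinases and adaptors, 4 were above and 3 below 0 (median log2 fold change 0.00), and 0 passed. GAB1, an adaptor of gp130 receptors, had the smallest p of these, at 31.8 ± 1.55 CPM in Zelnorm and 28.5 ± 2.74 CPM in control tumours. JAK3, a kinase known mainly from lymphocytes, was at 6.99 ± 1.09 and 7.57 ± 0.19 CPM. PTPN11, the phosphatase SHP2 that binds gp130, was at 259 ± 11.0 and 248 ± 25.2 CPM, and SOS1, an activator of RAS, at 76.2 ± 4.81 and 78.3 ± 5.71 CPM, in both cases with Zelnorm tumours before controls. Among other transcription factors of the STAT family, STAT2, which acts in interferon signalling, was at 129 ± 23.8 CPM in Zelnorm and 141 ± 6.75 CPM in control tumours. STAT5A was at 11.3 ± 0.25 CPM in Zelnorm and 10.5 ± 1.64 CPM in control tumours, and STAT5B at 77.2 ± 4.79 CPM in Zelnorm and 78.1 ± 12.0 CPM in control tumours. None of these STAT genes passed the test (edgeR adjusted p = 1.00 for each).

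Of 16 inhibitors and phosphatases 15 were tested, 9 above and 6 below 0 (median log2 fold change 0.03), and 0 passed. CISH, a SOCS family member that STAT5 induces, was at 15.8 ± 2.65 CPM in Zelnorm and 12.9 ± 2.98 CPM in control tumours. SOCS2 was at 12.2 ± 3.18 and 14.0 ± 3.42 CPM, SOCS5 at 30.1 ± 3.58 and 27.5 ± 5.22 CPM and SOCS6 at 25.4 ± 3.01 and 21.6 ± 5.09 CPM, Zelnorm before control. SOCS5 and SOCS6 were both lowest in NC4. PTPRT, a phosphatase of STAT3 named here for being under the filter, had 0 counts in each of the 6 tumours.

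Among 32 genes known as STAT3 targets, all tested, 21 were above and 11 below 0 (median log2 fold change 0.11). Of all tested human genes, 49.1% were above 0. In the list 0 passed, where 0% of all tested genes passed. The list's median was 0.023 without the control NC9, 0.046 without MBZ_259, 0.18 without MBZ_257 and 0.28 without the control NC4. At an unadjusted p under 0.05 there were 3 of 32, against 1.31% of all tested genes. They were IRF1 and MCL1 on the higher and PIM1 on the lower side, also the list's only genes whose groups did not overlap. Over all tested human genes, the groups of 4.82% did not overlap. IRF1, a transcription factor of interferon responses, was at 28.1, 35.2 and 30.2 CPM in the Zelnorm tumours, against 26.0, 25.0 and 23.7 CPM in the controls (log2 fold change 0.32, SE 0.13; edgeR adjusted p = 1.00). PIM1, a survival kinase, was at 34.5, 33.9 and 22.1 CPM in the Zelnorm tumours, against 39.2, 40.3 and 38.3 CPM in the controls (log2 fold change -0.38; edgeR adjusted p = 1.00). MCL1, an inhibitor of apoptosis, was at 528, 478 and 956 CPM in the Zelnorm tumours, against 458, 449 and 449 CPM in the controls (log2 fold change 0.53; edgeR adjusted p = 1.00).

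MBZ_259 was the highest of the 6 tumours for 13 of the 32 listed genes, and the control NC4 for 10. How often each tumour was the highest over all tested genes was not counted. MBZ_259 held 956 CPM of MCL1 and 91.8 CPM of FOS, a subunit of AP-1, where the other Zelnorm tumours had 12.6 and 11.4 CPM of FOS and the controls 9.07, 11.0 and 21.0 CPM. Without MBZ_259 the log2 fold change was 0.16 in place of 0.53 for MCL1, -0.19 in place of 1.50 for FOS and -0.20 in place of -0.38 for PIM1. JUNB and ZFP36, chosen after their values were seen, were also highest there, at 114 and 80.4 CPM in MBZ_259 against at most 60.8 and 27.2 CPM in any other tumour. SOCS3 and STAT3 did not follow them: in MBZ_259 SOCS3 was the third highest of the 6 tumours and STAT3 the lowest.

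The fibrinogen genes FGA, FGB and FGG, acute-phase genes that IL-6 and STAT3 switch on in liver, were abundant in these tumours and are named after their values were seen. FGB was at 833, 394 and 1010 CPM in MBZ_254, MBZ_257 and MBZ_259, against 574, 631 and 572 CPM in NC10, NC4 and NC9. FGG was at 1803, 965 and 2659 CPM in the same Zelnorm tumours, against 1515, 1457 and 1285 CPM in the same controls, and FGA at 1823, 808 and 2865 CPM against 1198, 2130 and 1107 CPM. All 3 were lowest in MBZ_257 and highest in MBZ_259, so the Zelnorm tumours spanned the controls on both sides for each. The log2 fold changes were 0.31 for FGA, 0.33 for FGB and 0.35 for FGG, with 95% intervals that all included 0. Without MBZ_259 they were -0.17 for FGA, 0.05 for FGB and -0.04 for FGG, and without MBZ_257 0.67, 0.64 and 0.65 in the same order.

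**Figure D5:**
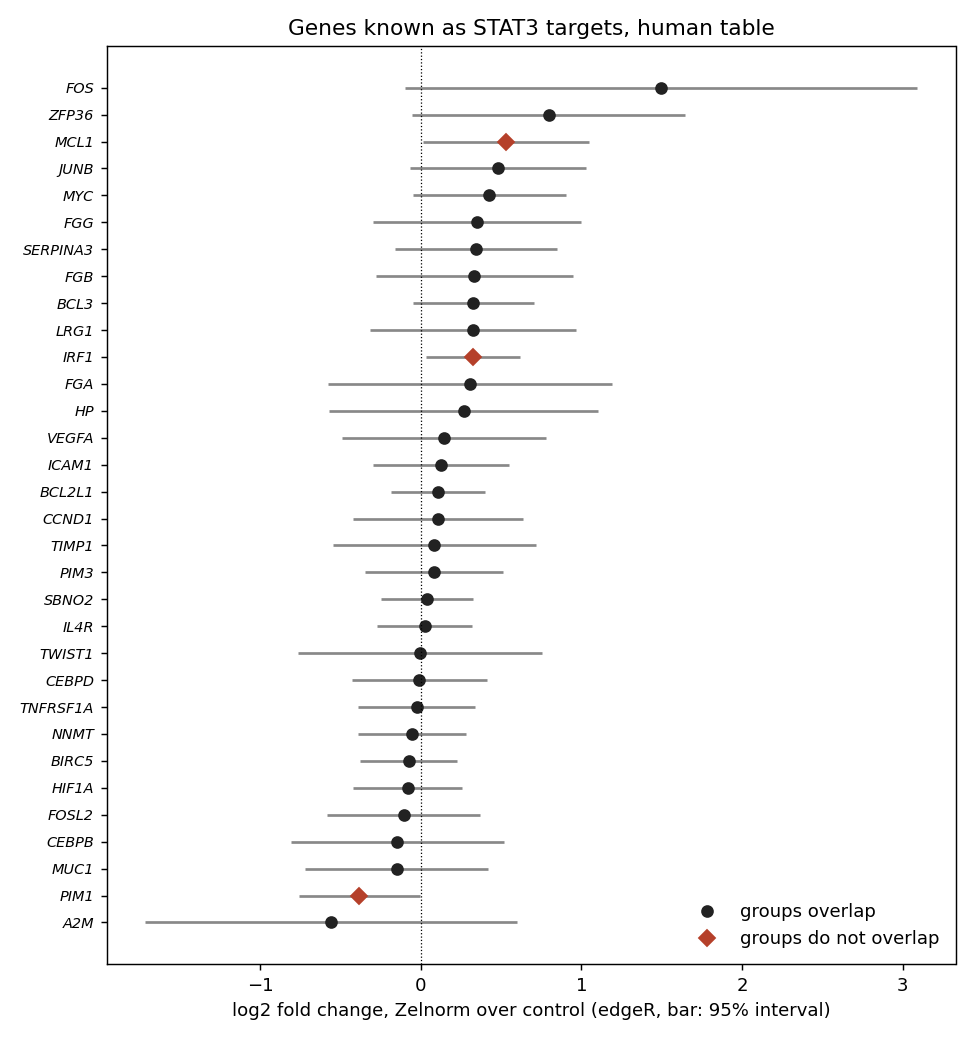
Log2 fold change of Zelnorm over control (points) and 95% interval (bars) of the 32 genes known as STAT3 targets in the human table, sorted by fold change. The 3 genes whose groups do not overlap are MCL1 and IRF1 above 0 and PIM1 below 0, and FOS, at 1.50, has the widest interval.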

How the data were processed

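Per the labels' protocols, total RNA of the tumours was made into libraries with a TruSeq kit. The authors deposited a human and a mouse table of estimated counts; 38.0% and 27.0% of the values above 0 were not whole. The submitters' processing notes name the tools edgeR, DESeq2, StringTie and HISAT2 and the builds GRCm38 and GRCh38. The sources used here do not say how reads were divided between species or whether strand was counted. Column names carry a group prefix and a number that no label repeats, so libraries were tied to a group only. Rows without a gene name (574 of 59458 human, 856 of 56392 mouse), with 0.407% to 0.518% and 0.317% to 0.468% of a library's counts, were left out.

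Estimated counts were rounded to whole numbers. Each table was fitted whole in edgeR 4.0.16 (R 4.3.3) with filterByExpr, TMM scaling and the two-sided quasi-likelihood test, with Benjamini-Hochberg adjustment and calls under 0.05. Intervals come from the F statistic and its degrees of freedom. The scripts were tested on simulated data. Alternatives were DESeq2 1.42.0, limma 3.58.1 (voom), DESeq2 size factors, no filter, truncation, and leaving out tumours. Mouse positions and lengths are from GENCODE M21. The 10 genes and the lists were chosen with earlier results of these data known. Named by rule were all 10 genes, up to 4 genes with the smallest p per list, and mouse counterparts with at least 1 CPM; other listed genes were named after their values were seen. Some genes of the lists are not reported here.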

Additional observations from a re-analysis of the deposited data

How the results depend on the processing

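No paired analysis was possible because the column names do not carry the replicate numbers of the labels. Under each of the 12 alternatives 0 of the 10 genes and 0 of the 10 mouse counterparts passed. Over all human genes 61 passed without the count filter and 2 with DESeq2; over all mouse genes 2 and 6 passed. Of the listed human genes whose CPM or log2 fold change is given, human OSM included, FOS (log2 1.50, edgeR adjusted p = 2.0e-06) and ZFP36 (0.80, edgeR adjusted p = 0.0072) passed without the filter and under no other alternative. With any 1 tumour left out, the calls over all genes stayed at 0 in both tables, and log2 fold changes that changed sign ran from -0.11 to 0.50 for IL6, -0.057 to 0.20 for IL6R, -0.22 to 0.047 for IL6ST, -0.21 to 0.12 for LIFR, -0.27 to 0.028 for JAK1, -0.29 to 0.061 for JAK2 and -0.15 to 0.14 for SOCS3. Among listed genes they ran from -0.11 to 0.32 for CLCF1, -0.19 to 1.96 for FOS, -0.0089 to 0.14 for PTPN11, -0.023 to 0.22 for SOCS5, -0.097 to 0.0033 for SOS1 and -0.086 to 0.12 for STAT5B. Among those named after their values were seen they ran from -0.14 to 0.53 for human OSM, -0.17 to 0.67 for FGA and -0.035 to 0.65 for FGG. In the mouse table they ran from -0.45 to 0.58 for Il6, -0.13 to 0.10 for Il6ra, -0.25 to 0.26 for Jak2, -0.34 to 0.19 for Osmr, -0.073 to 0.14 for Socs3 and -0.17 to 0.060 for Stat3. Truncation gave -0.0033 for Il6ra and DESeq2 0.00 for Osmr. NC4 and MBZ_257 were also both left out, chosen after seeing the data for the highest and the lowest sum of host-type markers, mostly COL1A1. By the mouse table's share of all counts the highest was MBZ_254, at 23.4%, before NC4, at 22.3%. Without NC4 and MBZ_257, values of opposite sign were 0.24 for SOCS3, 0.053 for JAK1, 0.064 for STAT5B, -0.024 for human OSM, 0.080 for Il6st and 0.33 for Osmr. The median of the other ligands and receptors was 0.057 without the filter, 0.048 with DESeq2, 0.037 with limma-voom, 0.0057 without NC4 and MBZ_257, and -0.015 to 0.14 with 1 tumour left out. With 1 tumour left out the median ran from 0.023 to 0.28 for the STAT3 targets, 0.0041 to 0.040 for the inhibitors and -0.017 to 0.029 for the kinases and adaptors. The cause of these shifts was not tested. Low counts limit the precision for IL6, CTF1, CNTF, human OSM, mouse Il6 and mouse Osm.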

Other observations

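Antisense genes lie at 4 of the loci, and with strand of counting not given, their reads and those of the gene cannot be told apart. LIFR-AS1 held 2.41% to 4.65% of the counts of LIFR and LIFR-AS1 together, OSMR-AS1 0.917% to 1.11% of its pair, IL6R-AS1 at most 0.819% and LIF-AS1 at most 0.258%. LIFR was not whole in 4 of the 6 tumours, and in all 4 the sum of LIFR and LIFR-AS1 was whole to within 0.005 counts. The same did not hold for LIF (0 of 5 tumours) or OSMR (0 of 3).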
